A study of Mus musculus with 1087 samples.

Results

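Trp53 and 9 genes that its protein, p53, is known to control or that control it were followed through 1087 single cells of the mouse embryo: Mdm2, Cdkn1a, Ccng1, Pmaip1, Perp, Trp53inp1, Phlda3, Sesn2 and Zmat3. They were taken by symbol from the gene rows of the deposited read count table, and all 10 were found among its 46078 genes. The cells came from the aorta-gonad-mesonephros (AGM) region, where clusters of blood-forming cells bud from the wall of the dorsal aorta. Embryos were Gata2V/+, from wild-type C57BL/6HsdJOla females mated to Gata2V/V males, so every cell carried 1 Gata2 allele with the Venus fluorescent reporter. Live cells were sorted with antibodies to CD31, cKit and CD27, and every sample title reads KitHi. The 5 groups were E10 cells with intermediate Venus (G2VInt, 87 cells), E11 G2VInt cells (130), E11.5 G2VInt cells, E11.5 cells with low Venus (G2VLo) and E11.5 cells sorted as CD27+. No label ties a cell to an embryo or a sort, so each group was treated as 1 sample, no difference between groups was tested, and no p-value is given. Intervals on levels are exact 95% Poisson intervals on the summed reads and cover counting error only. The reads carry no molecular identifiers that the labels mention, so they are not independent molecules.

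p53 is a transcription factor that is held at a low protein level by Mdm2, a ubiquitin ligase that marks it for destruction and whose own gene p53 switches on. When DNA is damaged or a cell is under other stress, p53 protein accumulates and drives genes that stop the cell cycle, change metabolism or start cell death. Much of this control acts on the protein, so the amount of Trp53 RNA does not measure p53 activity. In blood-forming cells p53 is known for its effects on quiescence and on survival after damage.

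Of the 10 genes, 6 had a promoter window in RefSeq (GRCm38.p6), 7 windows in all, each running from 250 bases before a transcription start to 50 bases after it. Windows for Pmaip1, Perp, Trp53inp1 and Zmat3 were not used here. The windows were searched for the p53 half-site, the 10-base consensus that p53 binds in pairs. It reads the same on both strands, so 1 search covers both. Of the 6 genes, 4 had a match. Those are printed 5′ to 3′ on the gene's strand with the match in capitals and 20 bases on each side. The Mdm2 stretch is chr10:117710915-117710964 on the minus strand. The Ccng1 stretch is chr11:40755442-40755501 on the minus strand. The Trp53 stretch is chr11:69580264-69580313 on the plus strand. The Cdkn1a stretch is chr17:29090886-29090967 on the plus strand.
Mdm2: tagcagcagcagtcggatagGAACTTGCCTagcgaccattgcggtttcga
Ccng1: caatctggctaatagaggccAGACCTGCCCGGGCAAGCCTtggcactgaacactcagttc
Trp53: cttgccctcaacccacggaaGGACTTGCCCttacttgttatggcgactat
Cdkn1a: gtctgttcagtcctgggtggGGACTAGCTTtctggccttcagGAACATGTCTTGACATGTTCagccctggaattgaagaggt
The capitals in Ccng1, and the longer run of capitals in Cdkn1a, are 20-base sites of adjoining half-sites with at most 1 base off the consensus. Of all 32851 RefSeq promoter windows of this length, 8.36% held a half-site and 0.0883% held a 20-base site with at most 1 base off. Cdkn1a also had a window at chr17:29093519-29093818 with no match, so its printed sites belong to the other start. A match describes the letters of a window and is no record of binding, and the windows of Phlda3 and Sesn2, with no match, say nothing of sites elsewhere.

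Reads per cell ranged from 117369 to 6999570, with a median of 818924. The group medians were 1892780 to 2212900 reads in the 3 G2VInt groups, 539090 in G2VLo and 621544 in CD27+ cells. The median share of mitochondrial reads was 2.04% to 2.93% in the G2VInt groups, 6.41% in G2VLo and 8.29% in CD27+. Levels are CPM, the reads of a gene summed over a set of cells and scaled to the same total in every set. Because depth differed in this way, detection was counted as the percentage of cells in which a gene kept a read after each cell was thinned to 100000 reads, with exact Clopper-Pearson 95% intervals. The submitters' labels place each cell of the 4 Venus groups in 1 of 11 clusters and 1 of 5 classes, named EC (clusters 1 and 2), U2 (3 and 4), U1 (5 and 6), HC1 (7 and 8) and HC2 (9, 10 and 11). Endothelial markers summed to 7727 CPM in EC and 2078 in HC1, and pan-hematopoietic markers to 38.5 in EC, 2190.5 in HC1 and 2208 in HC2. HC2 had the myeloid, erythroid and mast cell markers, and U1 had the macrophage markers at 8939 CPM. Differences between clusters or classes are descriptions, since the same genes were used to cluster the cells.

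Trp53 was the most abundant of the 10 transcripts per unit length in every group, at 82.2 to 110.99 CPM per kilobase of exon. Trp53inp1 and Zmat3 took the last places in all 5 groups, with 1.24 to 2.75 and 0.664 to 1.53 CPM per kilobase. Other members changed rank between groups. Perp had rank 2 at E10 (28.9 CPM per kilobase), rank 5 in E11.5 G2VInt (10.7) and rank 8 in E11.5 G2VLo (5.07). Phlda3 had rank 5 at E10 (12.9) and rank 2 in E11.5 G2VInt (23.995).

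**Figure D1:**
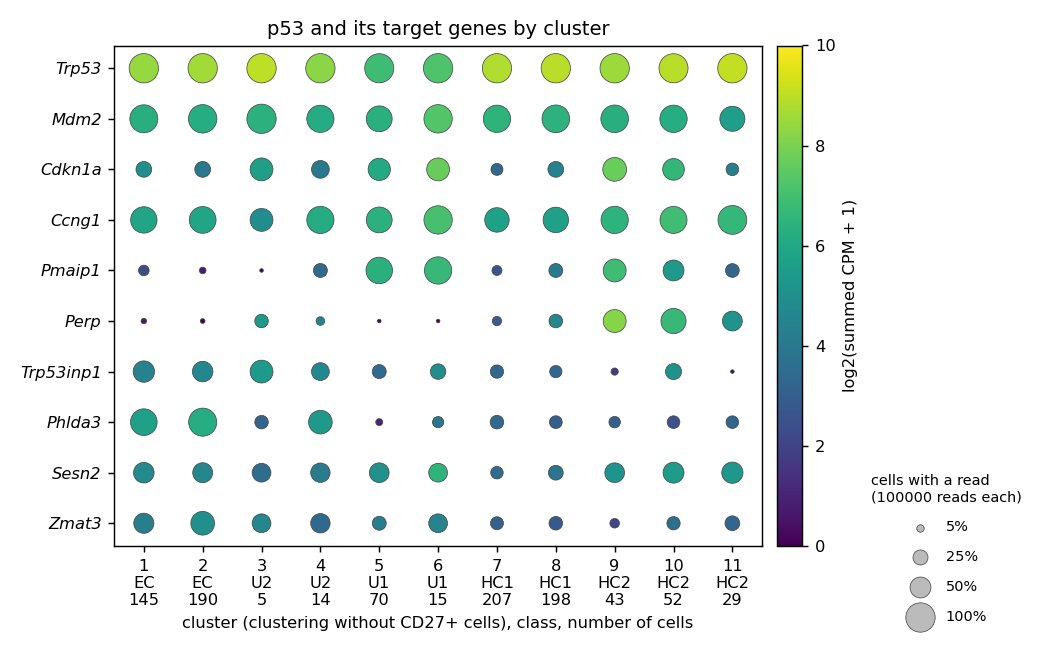
Levels of the 10 genes in the 11 clusters: each dot is 1 gene in 1 cluster, its colour is log2(summed CPM + 1) and its area the percentage of cells, thinned to 100000 reads, with a read. Trp53 is high in every cluster but 5 and 6, Perp is highest in clusters 9 and 10, and Phlda3 in clusters 1 and 2.

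Trp53 itself (chromosome 11, 69580359-69591873, GRCm38) was detected in nearly every cell. Its summed level was 448.97 CPM (445.9 to 452.1) in E10 G2VInt, 445.05 CPM in E11 G2VInt, 416.1 CPM in E11.5 G2VInt, 332.6 CPM in E11.5 G2VLo and 356.95 CPM in CD27+ cells. The groups thus spanned less than 1.5-fold, with the G2VLo and CD27+ cells lowest. By class it was 460.5 CPM in HC1, 469.1 in HC2 and 365.7 in EC, and 123.4 CPM in U1, the class with macrophage markers. Within G2VLo, U1 had 125.04 CPM and HC1 403.2 CPM, a 3.23-fold lower level in U1. It stayed past 2-fold under 6 other settings: the mean of per-cell CPM, mitochondrial reads left out, scaling by the trimmed mean of M-values (TMM), the lower or the upper library numbers of a group alone, and the gene's highest cell left out. Cluster 5 had 116.7 CPM and cluster 6 had 147.2 CPM, and no other cluster was below the 306.04 CPM of cluster 4. The pseudogene Trp53-ps had 11330 reads in all cells against 562765 on Trp53, and reads that fit both could be counted on either.

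Mdm2, the inhibitor of p53 and also its target (chromosome 10, 117688875-117710758), had 108.2 CPM at E10, 74.2 at E11, 74.9 in E11.5 G2VInt, 78.4 in G2VLo and 85.4 in CD27+ cells. The E10 cells stood above the other groups, but by less than 2-fold. Within HC1 the E10 cells were highest as well, with 111.9 CPM at E10, 76.8 at E11, 82.1 in E11.5 G2VInt and 81.5 in G2VLo. Mdm2 was found in 84.03% to 91.95% of thinned cells of a group, and ranged over the clusters from 46.4 CPM in cluster 11 to 154.2 CPM in cluster 6. That highest value rested on 1 cell, which held 63.4% of the cluster's Mdm2 reads, and was 75.4 CPM without it. Trp53 and Mdm2 were the only members with a read in more than 80% of the thinned cells of all 5 groups.

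Cdkn1a encodes p21, the inhibitor of cyclin-dependent kinases through which p53 halts the cell cycle. Its gene is at chromosome 17, 29090976-29100727, and in the annotation it overlaps AC167363.2 on the other strand. The strand setting of the counting is not given in the sources used here, so reads of the pair cannot be told apart. Cdkn1a had 27.99 CPM at E10, 50.2 at E11, 29.6 in E11.5 G2VInt, 30.99 in G2VLo and 40.6 in CD27+ cells. The E11 group is highest, but 1 of its cells held 31.7% of the Cdkn1a reads and the level without it was 34.7 CPM. The share of thinned cells with a Cdkn1a read lay between 26.9% and 35.6% in all groups, and the share without thinning between 37.8% and 56.3%. Cdkn1a was a gene of few cells at high level: in E10 HC1 the median cell had 0.37 CPM and the highest 527 CPM.

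By class, Cdkn1a was 106.9 CPM in HC2, 96.02 in U1, 23.05 in EC and 14.8 in HC1. The 4 highest clusters were cluster 9 (210.6 CPM), cluster 6 (203.5 CPM), cluster 10 (95.1) and cluster 5 (65.6). A single cell held 43.1% of the reads in cluster 9, which had 129.01 CPM without it, and 79.3% in cluster 6, which had 56.3 without it. Cluster 11, the HC2 cluster with the erythroid markers, had only 18.3 CPM.

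Ccng1 encodes cyclin G1, a p53 target that feeds back on Mdm2. It was the steadiest of the targets by group, with 68.9 CPM at E10, 64.1 at E11, 61.5 in E11.5 G2VInt, 65.4 in G2VLo and 50.1 in CD27+ cells. In HC2 it had 104.7 CPM and in HC1 52.3 CPM. Cluster 10 had 120 CPM, cluster 11 had 100.8 CPM and cluster 9 had 87.03 CPM, so unlike Cdkn1a it was not low in cluster 11.

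Pmaip1 encodes Noxa, a BH3-only protein that promotes cell death at the mitochondrion. It had 23.5 CPM at E10, 16.6 at E11, 11.47 in E11.5 G2VInt, 24.1 in G2VLo and 9.80 in CD27+ cells. Among the G2VInt groups the level was lower at each later day, and single cells carried much of it: 1 cell held 34.3% of the reads at E11 and 1 held 32.6% in E11.5 G2VInt, and without them the levels were 11.04 and 7.76 CPM. By class, U1 had 84.7 CPM and a read in 82.4% of thinned cells, and HC2 had 54.7 CPM and 46.8% of cells. HC1 had 9.94 CPM and 15.6%, and EC 2.31 CPM and 7.16%. The median read depth before thinning was 496839 in U1, below the 919829 of EC and 1212710 of HC1. The part of depth in these shares was not tested.

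Perp encodes a membrane protein of the PMP22 family that p53 switches on in cell death and that is also part of desmosomes. It had 56.5 CPM at E10, 34.01 at E11, 20.9 in E11.5 G2VInt, 9.89 in G2VLo and 10.7 in CD27+ cells. Its share of thinned cells had the same order by group, from 43.7% at E10 through 24.6% and 13.98% to 6.99% in G2VLo, with 11.8% in CD27+ cells. Without thinning these shares were 57.5%, 42.3%, 25.8%, 8.05% and 15.97%. By class, HC2 had 138.8 CPM of Perp, HC1 14.5 CPM, EC 0.343 CPM and U1 0.052 CPM, which was 3 reads in 85 cells. No thinned U1 cell had a Perp read, and 3 cells of the 85, the limit used here for a count of 0, would be a share of 3.53%. Cluster 9 had 291.9 CPM, cluster 10 102.7 CPM and cluster 11 34.4 CPM.

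Trp53inp1 encodes a cofactor of p53 in the stress response that also acts in autophagy. It had 8.03 CPM at E10, 17.8 at E11, 15.2 in E11.5 G2VInt, 15.7 in G2VLo and 16.5 in CD27+ cells. The E10 group stood alone at the low end. Trp53inp1 had a read in 49.9% of thinned EC cells, against 17.8% in HC1 and 13.7% in HC2. Within EC it had 20.9 CPM in the 14 E10 cells, 49.2 in the 15 E11 cells, 18.2 in E11.5 G2VInt and 22.2 in G2VLo, with the few E11 cells highest. Within HC2 it split by cluster, with 33.4 CPM in cluster 10, the cluster of mast cell markers, and 2.11 and 0.370 CPM in clusters 9 and 11.

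Phlda3, an inhibitor of AKT, and Zmat3, an RNA-binding zinc finger protein that takes part in p53 control of splicing, both had their highest class level in EC. Phlda3 had 20.04 CPM at E10, 13.1 at E11, 37.4 in E11.5 G2VInt, 28.9 in G2VLo and 19.3 in CD27+ cells. Zmat3 had 11.96, 7.60, 17.5, 15.3 and 11.9 CPM in the same groups. Both were lowest at E11 and highest in E11.5 G2VInt, and the share of EC cells in the Venus groups was 16.1% at E10, 11.54% at E11, 43.7% in E11.5 G2VInt and 38.98% in G2VLo. EC as a class had 61.9 CPM of Phlda3, with a read in 87.5% of thinned cells, while HC1 had 8.33 CPM and 19.01%. Zmat3 had 24.3 CPM and 56.7% in EC and 6.96 CPM and 19.3% in HC1.

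Sesn2 encodes sestrin 2, which restrains mTORC1 and limits oxidative stress. It had 24.4 CPM at E10, 18.2 at E11, 25.4 in E11.5 G2VInt, 18.3 in G2VLo and 13.5 in CD27+ cells. HC2 had 40.2 CPM, U1 44.1, EC 25.1 and HC1 11.8, so HC1 was the lowest of the 4 large classes for this gene. The 77 U1 cells of G2VLo had 24.7 CPM, so the U1 value was raised by the 8 U1 cells of G2VInt. In the annotation Sesn2 overlaps Gm12981 on the same strand, and that gene had 0.227 CPM over all cells.

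**Figure D2:**
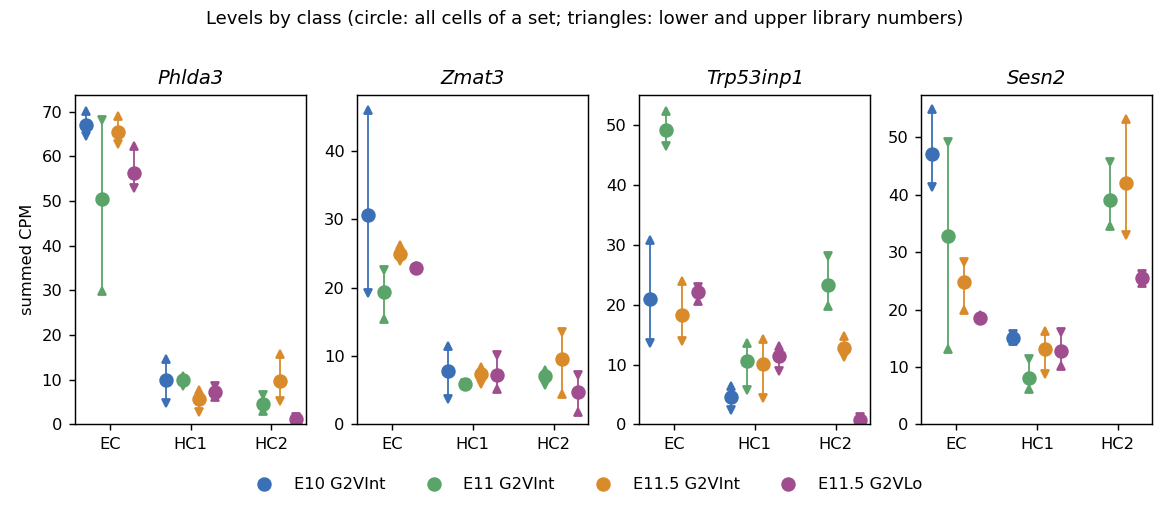
Summed CPM of Phlda3, Zmat3, Trp53inp1 and Sesn2 in EC, HC1 and HC2 by group, as circles, joined to triangles that give the same level in the lower (pointing down) and upper (pointing up) library numbers of each group. Phlda3 in EC lies between 50.5 and 66.9 CPM in all 4 Venus groups and in HC1 between 5.59 and 10.01 CPM.

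By day, the members were compared in HC1, the class with both endothelial and hematopoietic markers. Perp had 49.4 CPM (48.2 to 50.7) in the 63 E10 cells, 3.22 CPM (2.97 to 3.48) in the 77 E11 cells, 3.68 CPM in the E11.5 G2VInt cells and 6.91 CPM in the G2VLo cells. The E10 cells were thus 15.4-fold above the E11 cells, a log2 ratio of E11 over E10 of -3.94 (-4.06 to -3.82). A Perp read was found in 47.6% (34.9 to 60.6) of thinned E10 HC1 cells, 7.79% (2.91 to 16.2) of E11, 10.8% of E11.5 G2VInt and 6.75% of G2VLo cells. Without thinning these shares were 61.9%, 29.9%, 26.5% and 7.98%. The difference lay in a minority of cells with high levels: the median E10 HC1 cell had 0.97 CPM, the upper quartile was 59.8 CPM and the highest cell 444.4 CPM, while at E11 the highest cell had 40.2 CPM. The distributions overlapped at zero, and no single E10 cell held more than 17.4% of the group's Perp reads.

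**Figure D3:**
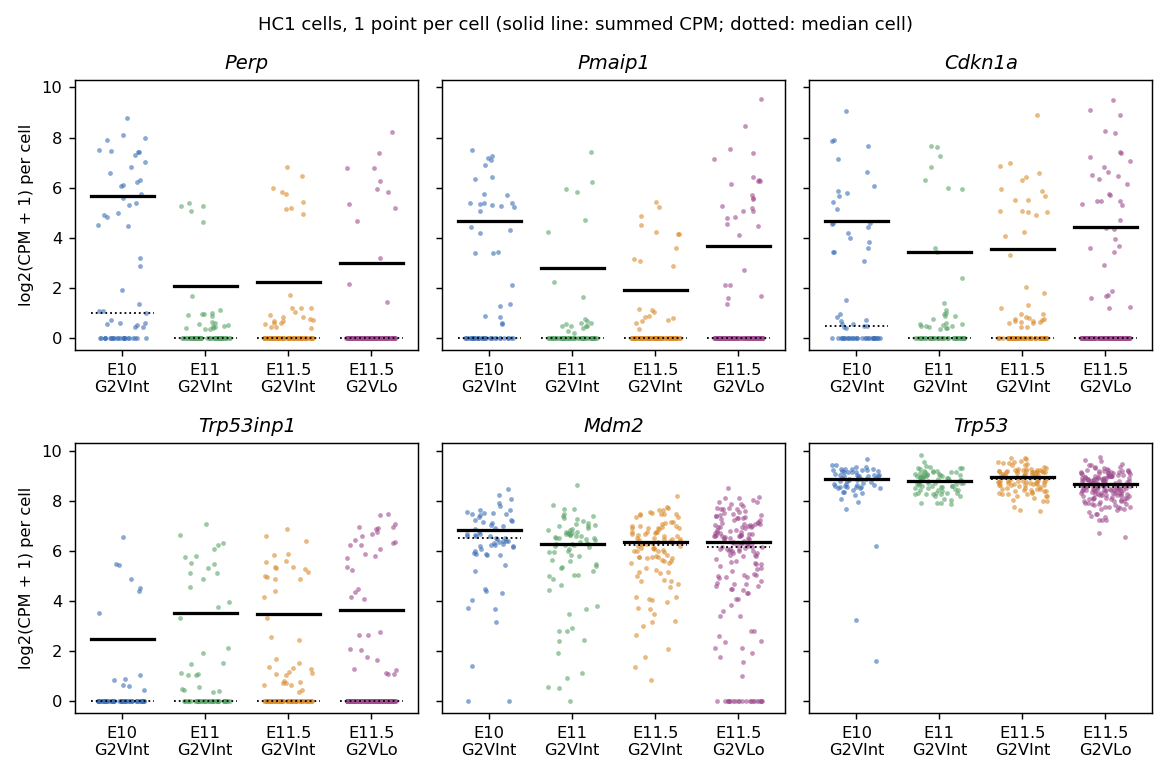
log2(CPM + 1) of 6 genes in single HC1 cells, by group, where each point is 1 cell, the solid line is the group's summed level and the dotted line the median cell. For Perp, 47.6% of thinned E10 cells had a read against 7.79% of E11 cells, while Trp53 has similar levels in all 4 groups.

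Pmaip1 and Cdkn1a followed the same direction from E10 to E11 in HC1. Pmaip1 had 24.1 CPM at E10, 5.95 at E11, 2.74 in E11.5 G2VInt and 11.7 in G2VLo, so that E11 was 4.05-fold below E10. A single E11 cell held 46.5% of the reads there, and E11 had 3.23 CPM without it. Cdkn1a had 24.1 CPM at E10, 9.74 at E11, 10.7 in E11.5 G2VInt and 20.6 in G2VLo, with E11 2.48-fold below E10. The shares of thinned cells went the same way, from 34.9% to 9.09% for Pmaip1 and from 36.5% to 12.99% for Cdkn1a. Trp53inp1 went the other way, with 4.53 CPM at E10, 10.6 at E11, 10.1 in E11.5 G2VInt and 11.4 in G2VLo. That is 2.34-fold more at E11 than at E10, but 1 cell held 42.98% of the E10 reads and 1 held 20.97% of the E11 reads. With these left out, and in the lower library numbers, the ratio stayed above 2-fold but the E11 level was under the 10 CPM asked of a compared gene.

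In all, 4 of the 9 members with at least 10 CPM at E10 or E11 differed by 2-fold or more between the HC1 cells of these days, against 6.86% of all genes tested in the same way. Each of the 4 reached 10 CPM only on its higher day, and the members were chosen with earlier results of these data known. The count is thus a description. Perp, Pmaip1 and Cdkn1a kept the 2-fold difference under all 6 other settings. Within the lower library numbers Perp had 35.2 CPM at E10 and 3.62 at E11, and within the upper ones 61.7 and 2.97 CPM. Mdm2 (log2 -0.54), Ccng1 (-0.63) and Sesn2 (-0.89) were lower at E11 by less than 2-fold, though Sesn2 reached -1.24 in the upper library numbers. Trp53 (-0.06) was nearly equal on both days. Phlda3 was at 0.00, but at 0.88 in the lower and -0.43 in the upper library numbers. Zmat3, under 10 CPM on both days and not among the 9, was at -0.42, with 0.71 in the lower and -0.99 in the upper numbers. Between E11 and E11.5 G2VInt HC1 cells none of 7 members tested was past 2-fold, against 1.65% of all genes. Perp and Pmaip1 were under 10 CPM on both of these days and were not among the 7.

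**Figure D4:**
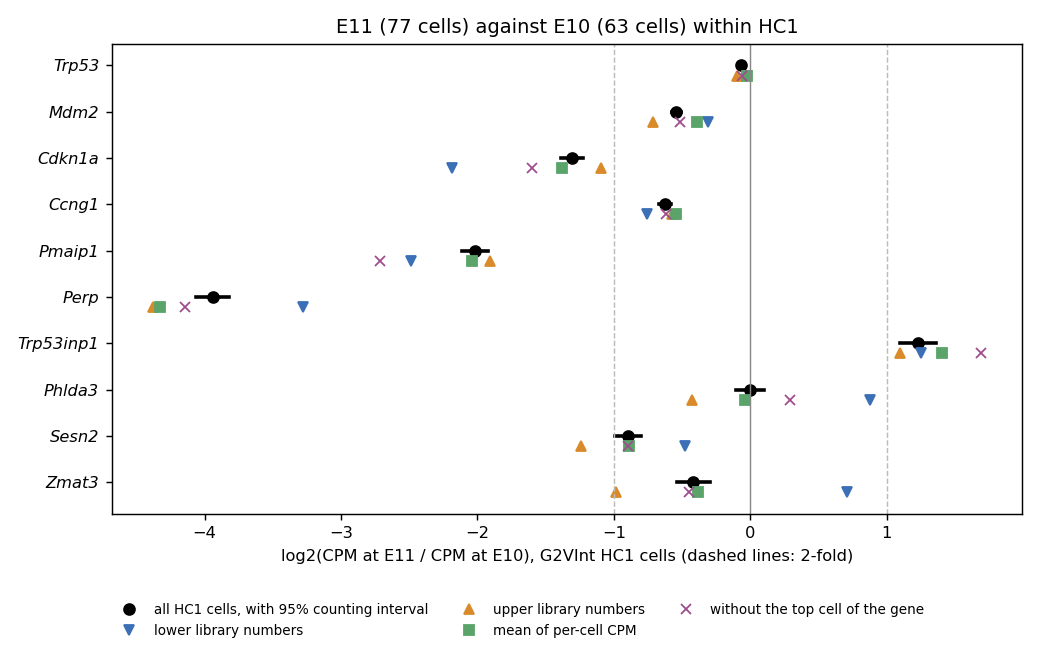
log2 ratio of the summed level in E11 over E10 HC1 cells for the 10 genes, with the 95% counting interval and the values under other settings as further symbols; dashed lines mark 2-fold. Perp, Pmaip1 and Cdkn1a lie below the lower line under each setting shown, with main values of -3.94, -2.02 and -1.31.

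Other features of the HC1 libraries moved with the day as well. Summed immediate-early genes, which handling of cells can raise, had 1305 CPM at E10, 962 at E11, 920 in E11.5 G2VInt and 1804 in G2VLo. Of the 12 immediate-early genes 8 were higher at E10 than at E11, the most abundant being Jun (543.2 and 256.7 CPM). Median depth in HC1 was 2121420 reads at E10, 2432520 at E11, 1537370 in E11.5 G2VInt and 436916 in G2VLo. The summed endothelial markers were 1660 CPM at E10 and 2374 at E11, the myeloid markers 301.9 and 299.4, the macrophage markers 48.9 and 39.02, the erythroid markers 18.5 and 40.6 and the epithelial markers 111.6 and 169.8. Of the 6 epithelial markers, Krt18 made up nearly all, while Cdh1, Cldn6 and Krt19 were at or near 0 on both days. The part of these in the Perp, Pmaip1 and Cdkn1a difference was not tested. Day and library block also cannot be told apart, since the library numbers of the E10, E11 and E11.5 G2VInt cells do not mix.

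The day difference of Perp, Pmaip1 and Cdkn1a was present in both HC1 clusters but differed in steadiness. Cluster membership of the E10 cells depended on the clustering used. The clustering without CD27+ cells, used here, put 27 of them in cluster 7 and 36 in cluster 8. In the labels' clustering of all cells, the clusters of these numbers held 11 and 55 E10 cells. In cluster 8, with 36 E10 and 31 E11 cells, Perp had 66.2 and 6.06 CPM, Pmaip1 29.2 and 12.6, Cdkn1a 34.5 and 15.5, and Trp53inp1 1.26 and 11.9. These were 4 of 8 members tested, against 8.2% of all genes. In cluster 7, with 27 and 46 cells, Perp had 28.3 and 1.02 CPM, Pmaip1 17.6 and 0.85, Cdkn1a 11.02 and 5.29, and Sesn2 15.3 and 7.58. These were 4 of 8 as well, against 10.8% of all genes. Trp53inp1 was not among these 8 members, with 8.65 CPM at E10 and 9.58 at E11 and a read in 22.2% and 17.4% of thinned cells. In the lower library numbers alone, cluster 7 had 2.74 CPM of Perp at E10 and 2.13 at E11, Cdkn1a was higher at E11, Sesn2 was nearly equal, and Pmaip1 was under 10 CPM on both days, so none of the 4 kept the call. In the upper numbers Perp had 51.98 and 0.146 CPM. The high Perp cells of cluster 7 were thus in the upper numbers of the E10 libraries. Without its highest cell Cdkn1a in cluster 7 was under 10 CPM on both days, as was Trp53inp1 in cluster 8, and Sesn2 in cluster 7 was not past 2-fold. With the mean of per-cell CPM neither Cdkn1a nor Sesn2 was past it in cluster 7. In the lower library numbers Trp53inp1 in cluster 8 was under 10 CPM on both days. In the upper library numbers of cluster 8 Pmaip1 and Cdkn1a were lower at E11 by less than 2-fold.

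From E11 to E11.5 G2VInt within the HC1 clusters, fewer members differed. In cluster 7, 2 of 5 members were past 2-fold, against 3.89% of all genes, namely Cdkn1a (5.29 CPM at E11, 11.51 at E11.5) and Phlda3 (12.01 and 4.002). In cluster 8, 2 of 7 were, against 6.36%, namely Pmaip1 (12.6 and 5.20) and Sesn2 (8.77 and 19.6). The Cdkn1a difference turned to the other direction in the upper library numbers, it was not past 2-fold with the mean of per-cell CPM, and without the highest cell its levels, and those of Pmaip1 in cluster 8, were under 10 CPM. In the lower library numbers Phlda3 in cluster 7 and Pmaip1 in cluster 8 were under 10 CPM on both days, and Sesn2 in cluster 8 had 9.71 and 13.95 CPM, less than 2-fold apart. In HC2, none of 8 members was past 2-fold between E11 and E11.5 G2VInt, against 6.36% of all genes. That count was 1 to 3 in 7 of the 8 other settings, with Cdkn1a, Trp53inp1 and Zmat3 past 2-fold in the lower library numbers and Phlda3 in the upper ones. Perp had 132.997 and 143.03 CPM there and Pmaip1 52.7 and 57.9 CPM. E10 had only 8 HC2 cells and was not compared.

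Over all cells of a group, where the mix of classes also differs, E11 against E10 put 1 of 10 members past 2-fold, Trp53inp1, against 4.98% of all genes. E11.5 G2VInt against E11 put 2 of 10 past it, Phlda3 and Zmat3, against 7.76%. E11.5 G2VInt against E10 put 2 of 10 past it, Pmaip1 and Perp, both lower at E11.5, against 9.4%. These 3 comparisons share groups and are not independent of each other. Pmaip1 was no longer past 2-fold at E11.5 against E10 with the mean of per-cell CPM, with TMM scaling or in the upper library numbers, and Perp was not in the lower ones.

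Cells with reads of several of these genes were counted for Cdkn1a, Pmaip1 and Perp, a set chosen after seeing that they were lower at E11 in HC1. A difference in such a count between days restates in part the shares of the single genes, and is given as a description. In thinned E10 HC1 cells, 38.1% had at least 2 of them, against 1.30% at E11, 2.94% in E11.5 G2VInt and 8.59% in G2VLo. All 3 were present in 6 of 63 E10 HC1 cells and in none of the other HC1 cells. In HC2 the share with at least 2 was 61.1% at E11, 54.5% in E11.5 G2VInt and 47.2% in G2VLo, with all 3 in 9 of 36, 11 of 44 and 6 of 36 cells. In EC it was 2.46% to 7.14%. In the 77 U1 cells of G2VLo it was 48.1%, and none had all 3, since Perp was near 0 there. By cluster the share was 67.4% in cluster 9, 63.5% in cluster 10 and 20.7% in cluster 11, 17.7% in cluster 8 and 3.38% in cluster 7.

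**Figure D5:**
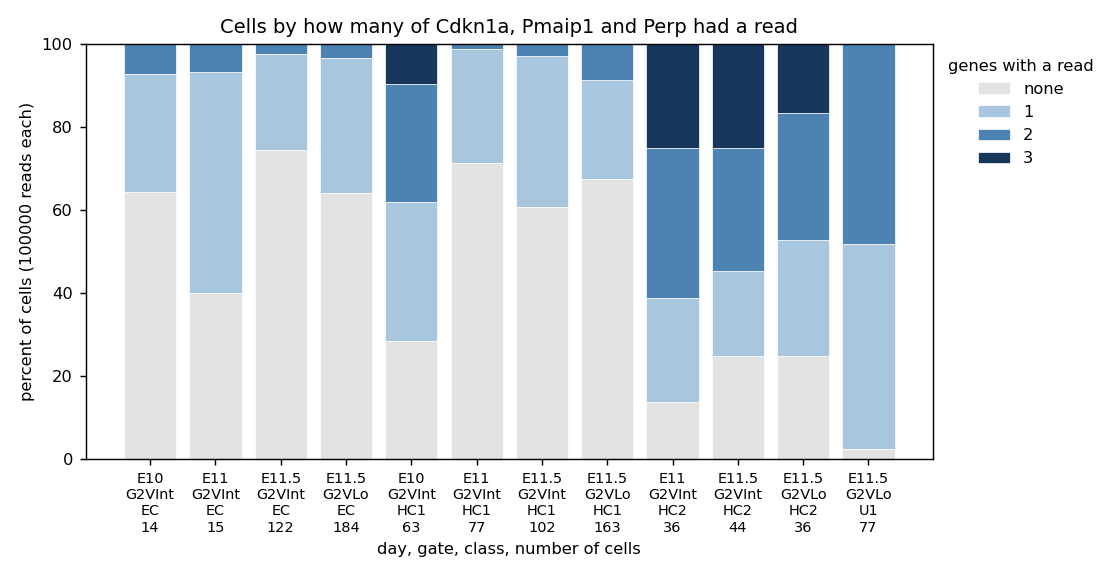
Percentage of cells, thinned to 100000 reads, with a read of none, 1, 2 or all 3 of Cdkn1a, Pmaip1 and Perp, for each class within each group, with the number of cells. At least 2 of them were found in 38.1% of E10 HC1 cells and 1.30% of E11 HC1 cells.

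The gates were compared at E11.5, where G2VInt and G2VLo cells were sorted on the same day of development. Over all cells 2 of 10 members were past 2-fold, against 3.34% of all genes: Perp was higher in G2VInt (20.9 against 9.89 CPM) and Pmaip1 lower (11.47 against 24.1 CPM). Perp was not past it with TMM scaling or in the lower library numbers, and Pmaip1 was not in the upper ones. With the U1 and U2 cells left out neither was past 2-fold, and U1 made up 16.3% of G2VLo and 2.87% of G2VInt cells. In HC1, 1 of 7 members was past 2-fold, against 2.76% of all genes. This was Pmaip1, at 2.74 against 11.7 CPM in G2VInt against G2VLo cells, and both levels were under 10 CPM in the lower library numbers and when its highest cell was left out. G2VLo HC1 cells had a lower median depth and a mitochondrial share of 5.81% against 2.54%, and 1804 against 920 CPM of immediate-early genes. The 18 genes of the G2 and M phases summed to 2673 CPM in G2VLo and 4699 CPM in G2VInt HC1 cells. The part of these was not tested.

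Inside HC1 the gates differed in opposite directions by cluster for Trp53inp1. In cluster 7 its level was 6.01 CPM in G2VInt against 18.1 in G2VLo, the only 1 of 6 members past 2-fold, against 5.59% of all genes. In cluster 8 its level was 16.5 CPM in G2VInt against 6.54 in G2VLo. There Cdkn1a had 9.33 and 26.6 CPM and Pmaip1 5.20 and 16.4 CPM, which made 3 of 8 members past 2-fold, against 4.99% of all genes. The Cdkn1a value in cluster 8 was 19.6 and 15.4 CPM in the lower library numbers, so its direction was not kept, and neither Cdkn1a nor Trp53inp1 was past 2-fold with the mean of per-cell CPM. Trp53inp1 in cluster 8 also did not keep its call in the lower library numbers. In the endothelial clusters the gates were close: none of 8 members was past 2-fold in cluster 1, against 4.3% of all genes, and none of 8 in cluster 2, against 1.68%.

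In HC2, 2 of 8 members differed between the gates, against 12.1% of all genes. Cdkn1a was at 88.2 CPM in G2VInt against 38.6 in G2VLo, and Trp53inp1 at 12.8 and 0.682 CPM, the latter from 14 reads. The HC2 cells of the gates fell in different clusters: of 44 G2VInt cells 23 were in cluster 10 and 8 in cluster 9, and of 36 G2VLo cells 7 were in cluster 10 and 23 in cluster 9. Cdkn1a in G2VInt HC2 was 38.4 CPM in the lower and 150.7 CPM in the upper library numbers, where G2VLo HC2 had 39.7 and 37.2 CPM. A single cell held 31.1% of the G2VInt reads, and without the highest cells of the gene Cdkn1a was less than 2-fold higher in G2VInt. Trp53inp1 was then under 10 CPM in both gates.

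The CD27+ cells have no class label and were compared in cluster 8 of the labels' clustering of all cells, which held 69 of them. Against G2VLo cells of that cluster, 1 of 7 members was past 2-fold, against 3.22% of all genes: Pmaip1 had 9.09 CPM in CD27+ and 19.6 in G2VLo cells, by less than 2-fold in the lower library numbers. Its share of thinned cells went the other way, with 26.1% in CD27+ and 20.3% in G2VLo cells. Against G2VInt cells 1 of 6 was past 2-fold, against 8.92%: Cdkn1a had 35.03 CPM in CD27+ and 10.5 in G2VInt cells. Over all cells, Pmaip1 was the only 1 of 10 members past 2-fold between CD27+ and G2VLo cells, against 8% of all genes, and it was not past it in the lower library numbers (12.2 against 21.7 CPM). It was also not past it once the U1 and U2 cells of G2VLo were left out. For the CD27+ cells, which have no class, those in clusters 4, 5 and 6 of the clustering of all cells were left out in the same step. None of 10 was past it between CD27+ and G2VInt cells, against 10%. Both comparisons use the same CD27+ libraries. The library numbers of the CD27+ and G2VInt cells do not mix, so gate and library block cannot be told apart between them.

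Classes of the same gate were compared as well. Phlda3 had 65.4 CPM in EC and 5.59 in HC1 of G2VInt cells, and 56.2 and 7.17 CPM in G2VLo cells, 11.7-fold and 7.84-fold more in EC. Zmat3 had 24.9 and 7.33 CPM in G2VInt and 22.95 and 7.26 CPM in G2VLo. Pmaip1 in G2VLo was 2.54 CPM in EC and 11.7 in HC1. These were 2 of 8 members past 2-fold in G2VInt, against 24% of all genes, and 3 of 9 in G2VLo, against 24%, shares close to the background. Without its highest cell, and in the lower library numbers, Pmaip1 was under 10 CPM in both classes. TMM scaling shifted every EC to HC1 ratio up by 0.19 and 0.20 on the log2 scale, which put 5 and 4 members past 2-fold, Phlda3 and Zmat3 among them. Over all comparisons made, TMM shifted the ratios by -0.15 to 0.40.

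In HC2 against HC1 of G2VInt cells, 4 of 8 members were past 2-fold, all higher in HC2. Of all genes 23% were past it in either direction, 6.96% higher and 16% lower. Perp had 143.03 against 3.68 CPM, Pmaip1 57.9 against 2.74, Cdkn1a 88.2 against 10.7 (less than 2-fold in the lower library numbers) and Sesn2 41.96 against 13.1. In G2VLo cells it was 4 of 8, against 15.1%. There Perp had 94.8 against 6.91 CPM, Pmaip1 54.01 against 11.7 and Sesn2 25.5 against 12.7, while Trp53inp1 was lower in HC2, 0.682 against 11.4 CPM. Sesn2 was just under 2-fold there without its highest cell. In the lower library numbers Sesn2 had 26.2 against 16.1 CPM, less than 2-fold, and Trp53inp1 was under 10 CPM in both classes. In U1 against HC1 of G2VLo cells it was 3 of 8, against 41.9% of all genes, which is near the background. Pmaip1 had 101.1 against 11.7 CPM, Cdkn1a 82.8 against 20.6 CPM and Trp53 the lower level given above.

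Within a class and group, levels were also set against each other across cells, thinned to 100000 reads, as descriptions. Such cells share libraries and depth, and sparse counts limit what a rank correlation can show. Across the 44 E11.5 G2VInt HC2 cells, Spearman's rho of Cdkn1a with Pmaip1 was 0.57, and across the 36 G2VLo HC2 cells 0.56. Cdkn1a with the summed immediate-early genes had 0.44 and 0.41 in these sets, 0.56 in the 36 E11 HC2 cells, 0.33 in the 63 E10 HC1 cells and 0.10 in the 77 E11 HC1 cells. Perp with the summed myeloid markers had 0.64 in G2VInt HC2 and 0.62 in E11 HC2 cells, and 0.27 in G2VLo HC2 cells. Perp with the summed erythroid markers had -0.40 in E11.5 G2VInt and -0.64 in E11 HC2 cells. HC2 pools clusters that differ in Perp and in these markers, and the part of the cluster mix in these values was not tested. The E10 and E11 values were added after seeing the data. The myeloid and erythroid lists were not among those planned for this step, and only some of the pairs computed are printed.

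A list of 29 other known p53 targets was compared in the same way. Between E11 and E10 HC1 cells 19 of them had enough reads, 3 were past 2-fold and higher at E11 (Fas, Ddb2 and Psrc1) and none was lower, against 5.53% of all genes higher and 1.33% lower. Their median log2 ratio was 0.06, against 0.02 over all genes tested. Fas, a death receptor, had 3.6 CPM at E10 and 16.7 at E11, and Ddb2, a DNA damage sensor, 10.5 and 23.3. Bax, a main effector of p53-driven cell death, had 109.3 and 81.3 CPM. Bbc3, which encodes the BH3-only protein Puma, had 11.9 and 12.8 CPM. Between E11 and E11.5 G2VInt HC1 cells none of 20 was past 2-fold. Of 20 regulators of p53, 16 could be compared between E10 and E11 in HC1 and none was past 2-fold, with a median of 0.25 against 0.02. Mdm4, the partner of Mdm2, had 60.3 CPM at E10 and 83.6 at E11.

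Between the gates in HC1, 20 of the other targets were compared. Bbc3 was higher in G2VInt (17.7 against 6.4 CPM), and Btg2 and Plk2 were lower (37.4 against 151.6 and 82.4 against 191.9 CPM). Of all genes 2.13% were higher and 0.627% lower, and the list's median was 0.35 against 0.15 over all genes. Btg2, an antiproliferative gene, is also induced early by other stimuli. In EC against HC1 of G2VInt cells, 3 of 21 were higher, among them Plk2 (928 against 82.4 CPM), and Ddb2 was lower, with a median of -0.36 against -0.19. Of all genes 12.2% were higher and 11.8% lower there, so the list's counts were near the background. In HC2 against HC1 of G2VInt cells 1 of 20 was higher, Btg2, and 4 were lower, among them Sesn1 (29.5 against 109.8 CPM), which is related to Sesn2. Of all genes 6.96% were higher and 16% lower there, again near the list's shares. In U1 against HC1 of G2VLo cells 3 of 20 were higher, among them Sesn1 (247.2 against 121.98 CPM), and 6 lower, near the 13% and 28.9% of all genes. The p53 relatives Trp63 and Trp73 and the Mdm2 inhibitor gene Cdkn2a were at or near 0 CPM in every group. Counts for Rpl5, Rpl11 and Rps27l are uncertain, since they may share reads with pseudogenes.

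Across the 10 clusters with at least 10 cells, Pearson's r of log2(CPM + 1) was taken between members as a measure of likeness. The members did not follow 1 profile. Ccng1 and Sesn2 had 0.90, Cdkn1a and Pmaip1 0.87 and Cdkn1a and Sesn2 0.79. Perp and Zmat3 had -0.86, Pmaip1 and Phlda3 -0.71, and Trp53 and Mdm2 -0.58. Phlda3 and Zmat3, both highest in EC, had 0.40. Among 10557 genes the profile most like that of Trp53 was Dazap1 (0.99), that of Perp Spns3 (0.98), that of Phlda3 Ptk2 (0.97) and that of Pmaip1 Psmb8 (0.97). For Cdkn1a it was Parp3 (0.90), for Mdm2 Manbal (0.96), for Ccng1 Cops9 (0.96), for Trp53inp1 Apaf1 (0.95), itself a p53 target of the apoptosome, for Sesn2 Nqo2 (0.94) and for Zmat3 Gng5 (0.94). With so few points, high values arise easily among this many genes. Cluster 6, with 15 cells, was 1 of the points, and single cells held most of its Cdkn1a and of its Mdm2 reads. The values were not taken again without those cells.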

How the data were processed

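Single cells were sorted from AGM tissue and their cDNA libraries were made with Nextera XT and run on an Illumina HiSeq, per the labels' protocols. The authors deposited raw read counts per gene for each cell, made with HTSeq 0.6.0 on GRCm38, per the submitters' processing notes. The aligner, annotation and strand setting are not given in the sources used here. Of 46078 gene rows, 45229 matched GENCODE M21, and the 849 others held 0.0859% of counts. No pair of cells had identical counts. The groups held 87 (E10 G2VInt), 130 (E11 G2VInt), 279 (E11.5 G2VInt), 472 (G2VLo) and 119 (CD27+) cells, and HC1 held 63, 77, 102 and 163 cells of the 4 Venus groups.

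Reads were summed over the cells of a set and divided by the set's total (CPM), with exact 95% Poisson intervals (scipy 1.17.1). A gene was compared where at least 1 of the 2 sets reached 10 CPM. A compared gene was called where its ratio was at least 2-fold in either direction. With 1 sample a group, no test was run. The alternatives were the mean of per-cell CPM, mitochondrial reads left out, edgeR 4.0.16 TMM scaling, the lower and upper library numbers of each group, each gene's top cell left out, other thresholds, and U1 and U2 left out. For levels by cluster, the labels' clustering of all cells was a further alternative. For each member, the genes named for likeness were the 3 highest by r, of which the first is printed, and for each gene list up to 3 genes past 2-fold in each direction. The members and lists were chosen with earlier results of these data known.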

Additional observations from a re-analysis of the deposited data

Results flagged for a closer look

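Cdkn1a differed between G2VInt and G2VLo at E11.5 in opposite directions in different sets of cells: the log2 ratio of G2VInt over G2VLo was 1.19 in HC2 and -1.51 in cluster 8. Neither direction was kept in the lower library numbers, where it was -0.049 in HC2 and 0.35 in cluster 8, and without the gene's highest cells the HC2 difference was under 2-fold. Trp53inp1 did so as well, with 4.23 in HC2, 1.33 in cluster 8 and -1.59 in cluster 7. The difference between these sets was not tested, since each gate is 1 sample. In HC2, G2VLo cells had 14 reads of Trp53inp1 and none in a thinned cell, and 3 of its 36 cells, the limit used for a count of 0, would be a share of 8.33%. Without its highest cells Trp53inp1 was under 10 CPM in both gates in HC2, and with the mean of per-cell CPM it was not past 2-fold in cluster 8. In the lower library numbers it did not keep its call in cluster 8 either.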

How the results depend on the processing

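Among differences past 2-fold, those that changed direction were of Cdkn1a and Sesn2: in the lower library numbers the log2 ratio was 1.99 for Cdkn1a and 0.19 for Sesn2 in cluster 7 of E11 over E10, 0.35 for Cdkn1a in cluster 8 and -0.049 in HC2 of G2VInt over G2VLo. In the upper numbers it was -0.57 for Cdkn1a in cluster 7 of E11.5 over E11. Below 2-fold, the sign of Phlda3 and Zmat3 in HC1 of E11 over E10 differed between the lower and upper numbers as well. The number of members past 2-fold in HC1 of E11 over E10 was 4 and ranged from 3 to 6, in E11.5 over E11 from 0 to 2 and between the gates from 0 to 2. For E11 over E10 it ranged from 0 to 5 in cluster 7 and from 2 to 6 in cluster 8. For E11.5 over E11 it ranged from 1 to 3 in both clusters, and between the gates from 1 to 3 in cluster 7, 1 to 6 in cluster 8 and 0 to 2 in clusters 1 and 2. In HC2 it ranged from 0 to 3 for E11.5 over E11 and 0 to 6 between the gates. Over all cells it ranged from 1 to 5 for E11 over E10, 2 to 4 for E11.5 over E11, 1 to 4 for E11.5 over E10 and 0 to 2 between the gates, and for CD27+ cells from 0 to 2 against G2VLo and 0 to 3 against G2VInt, or 1 to 3 against each in cluster 8 of all cells. Between classes it ranged from 2 to 5 and 3 to 4 for EC, 4 to 6 and 3 to 5 for HC2 and 3 to 5 for U1. The cause was not tested. The Perp ratio of E11 over E10 in HC1 lay between -4.38 and -3.28, that of Pmaip1 between -2.71 and -1.91 and that of Cdkn1a between -2.18 and -1.10. Thinning to 100000 reads limits the detection of low genes, and 1 sample a group limits every comparison. No paired analysis was possible because the labels give no replicate numbers.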
